A study of Mus musculus with 23 samples.

Results

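The 40 genes described here are expressed by macrophages and monocytes and were followed as a group by RNA sequencing of tumors that 2 murine glioma lines, GL261 and CT2A, formed in the brain. They were taken by name from a list and make up 40 of the 35576 genes quantified. By role they comprised 13 general myeloid genes (Adgre1, Cd68, Csf1r, Itgam, Ptprc, Laptm5, Tyrobp, Fcer1g, Aif1, Spi1, Cybb, Slc11a1 and Ly86) and 3 Fc receptors (Fcgr1, Fcgr2b and Fcgr3). A further 5 were associated with monocytes (Ly6c2, Plac8, Chil3, Lyz2 and Ms4a7), 6 with inflammation and activation (Cd14, Cd80, Cd86, Clec7a, Mmp12 and Arg1), and 5 were scavenger receptors (Mrc1, Cd163, Msr1, Marco and Folr2). The last were 4 complement genes (C1qa, C1qb, C1qc and C3ar1) and 4 genes of lipid handling and of the uptake of dead cells (Apoe, Trem2, Mertk and Gpnmb). Gliomas recruit blood monocytes, which mature into macrophages in the tumor beside the microglia that reside in the brain. Ly6c2 and Plac8 mark monocytes and are lost as these cells mature, whereas the C1q genes, Apoe, Trem2 and Mertk mark macrophages that clear debris and dead cells. Arg1, Mrc1 and Msr1 are known from macrophages of tumors and of healing wounds.

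Libraries fell into 6 groups, and all lines carried luciferase. Bulk tumors were grown from GL261-luc2 cells (n = 4, 100000 cells implanted) and CT2A-luc cells (n = 4, 25000 cells implanted) in the right striatum of female albino C57BL/6 mice aged 7 to 10 weeks, and were harvested after 22 to 24 days. Sorted fractions came from tumors of other luciferase sublines of GL261 (n = 4) and CT2A (n = 3), for which 200000 cells were implanted and whose tumor cells were selected with magnetic beads. Sorted fractions of neurosphere-derived tumors of the same sublines formed the last groups (GL261 n = 3, CT2A n = 5). For the 5 neurosphere-derived libraries described as CT2A, in the description and in the cell line label, the title gives GL261, and they were grouped under CT2A. Whether a subline was 1 clone is not given in the sources used here.

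The libraries held 34622622 to 42608400 estimated reads in GL261 bulk tumors, 9590096 to 9853530 in CT2A bulk tumors and 7395846 to 15263587 in the sorted groups. Levels are read counts scaled to library size (CPM), on a common scale across the 23 libraries, and levels of different genes are compared only on the length-corrected scale of TPM. The geometric mean CPM of 6 general genes (Ptprc, Csf1r, Laptm5, Tyrobp, Fcer1g and Spi1), called the myeloid backbone below, set 2 libraries apart. In GL261 sorted replicate 81 it was 12.9 against 36.6 to 64.1 in the other 3 libraries of that group, and 36 of the 40 genes were lowest there. In CT2A neurosphere-derived replicate 59 it was 141 against 32.5 to 61.9 in the other 4 libraries, and 33 genes were highest there. The shares of all genes that were lowest or highest in these 2 libraries are not given here. Some genes share sequence with a near copy, so that reads may be split between them: the share of 31-base words found in another gene was 68% for Itgam (Gm49368), 41.5% for Chil3 (Chil4 and others), 32.8% for Lyz2 (Lyz1), 23.7% for Ly6c2 (Ly6c1) and 13.4% for Fcgr3 (Fcgr2b), and at most 5.71% for the other 35. In a bulk or incompletely sorted sample, fewer cells of a type and less RNA per cell cannot be told apart.

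Spi1 encodes PU.1, the transcription factor of the myeloid lineage, whose sites hold the letters GAGGAAG. Windows from 250 bases before to 50 bases after the RefSeq gene start (GRCm38.p6) were given for 31 of the 40 genes, and 10 of these 31 genes held GAGGAAG or its reverse complement CTTCCTC (Fcgr1, Trem2, Laptm5, Mrc1, Itgam, Marco, C1qc, Mmp12, Ly6c2 and Fcgr3), beside 15.4% of all 27025 genes and 13.6% of all 32851 windows. The E-box CACGTG was in none of the 31 genes, beside 8.09% of all 27025 genes and 7.15% of all windows. The following 100 bases upstream of the start are shown for an integrin, an Fc receptor, a scavenger receptor and a monocyte gene whose levels are described below, with the PU.1 letters on either strand in capitals, and for Gpnmb, which holds neither motif and differed most between the lines. Each is read 5′ to 3′ on the strand of the gene. A match of letters is a description and not a measured site.
Itgam, chr7:128062509-128062608, plus strand: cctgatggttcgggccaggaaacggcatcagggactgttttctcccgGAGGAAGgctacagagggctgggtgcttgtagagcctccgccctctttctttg
Fcgr1, chr3:96293973-96294072, minus strand: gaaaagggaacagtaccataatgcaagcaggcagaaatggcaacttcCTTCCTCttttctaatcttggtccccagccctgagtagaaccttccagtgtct
Mrc1, chr2:14229199-14229298, plus strand: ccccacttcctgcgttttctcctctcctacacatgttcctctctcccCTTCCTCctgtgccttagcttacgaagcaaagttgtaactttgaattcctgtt
Ly6c2, chr15:75112027-75112126, minus strand: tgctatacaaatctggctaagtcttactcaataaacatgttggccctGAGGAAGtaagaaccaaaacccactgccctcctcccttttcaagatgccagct
Gpnmb, chr6:49036418-49036517, plus strand: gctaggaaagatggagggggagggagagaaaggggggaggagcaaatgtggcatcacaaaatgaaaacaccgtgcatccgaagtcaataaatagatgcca

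Together the 40 genes took a median of 0.56% of all TPM in GL261 bulk tumors, 0.561% in CT2A bulk tumors, 0.64% in GL261 sorted fractions, 0.39% in CT2A sorted fractions, 2.41% in GL261 neurosphere-derived fractions and 0.335% in CT2A neurosphere-derived fractions. Apoe, the lipid carrier that macrophages and astrocytes secrete, held the most of this sum in bulk tumors, with a median of 40.7% in GL261 and 42.9% in CT2A. Gpnmb, a transmembrane glycoprotein of lipid-laden macrophages and of melanocytes, held 13.9% in GL261 and 0.724% in CT2A. C1qa, which encodes a chain of the first complement component, held 7.37% in GL261 and 8.76% in CT2A, and Lyz2, the lysozyme of macrophages and neutrophils, held 4.77% and 8.14%. Median TPM in GL261 bulk tumors ran from 2357 for Apoe to 0.656 for Cd163, the haemoglobin scavenger receptor, and 0.108 for Marco, a scavenger receptor of alveolar macrophages. Marco was at most 0.351 CPM in bulk tumors and at 0 in every CT2A sorted library, and was tested in no comparison.

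The median level was highest in GL261 neurosphere-derived fractions for 37 of the 40 genes. For 33 of these 37 genes, all 3 libraries of that group lay above the other 20. The exceptions were Chil3, Apoe and Mertk, for which CT2A neurosphere-derived replicate 59 reached into the range, and Marco, for which GL261 sorted replicate 83 did. Counts of this kind over all genes are not given here. Ly6c2 and Plac8 had their highest median in CT2A bulk tumors, and Gpnmb had its highest in GL261 sorted fractions, where all 4 libraries lay above the rest.

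Between the lines, the bulk tumors differed in 2 of the 39 genes tested, Gpnmb and Plac8, where 23.4% of all genes tested passed the threshold, 11.4% higher and 11.9% lower (edgeR's quasi-likelihood test, Benjamini-Hochberg adjusted p under 0.05). The median log2 fold change of CT2A over GL261 was 0.16 over the 39 genes and -0.05 over all genes. None of the 13 general myeloid genes passed, by edgeR or by DESeq2, and 1 of them, Aif1, had an unadjusted p under 0.05 (0.67, standard error 0.26, adjusted p = 0.099). Ptprc, which encodes the leukocyte antigen CD45, was at 40.9, 43.4, 49.997 and 67.0 CPM in the 4 GL261 tumors and at 48.6, 67.7, 68.1 and 67.3 CPM in the 4 CT2A tumors, and the ranges overlapped (log2 fold change 0.27, standard error 0.20, adjusted p = 0.39). Csf1r, the receptor of the growth factor on which macrophages depend, ran from 122 to 204 CPM in GL261 and from 126 to 230 CPM in CT2A. C1qa ran from 148 to 241 CPM and from 150 to 254 CPM. All 13 general genes had a positive log2 fold change, between 0.02 and 0.67, none of which passed the threshold.

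Gpnmb (ENSMUSG00000029816, chr6:49036546-49070929, GRCm38, plus strand) was at 2072, 570.3, 1641 and 1112 CPM in the GL261 bulk tumors and at 47.2, 73.3, 94.5 and 43.7 CPM in the CT2A bulk tumors. Every GL261 tumor lay above every CT2A tumor, and Gpnmb was the single gene of the 40 whose bulk groups did not overlap. The share of all genes without overlap is not given here. The log2 fold change was -4.46 (standard error 0.51, adjusted p = 9.38e-04). The other 3 genes of lipid handling and dead-cell uptake did not pass. Apoe had a log2 fold change of -0.22, Trem2, a lipid-sensing receptor, one of -0.28, and Mertk, a receptor for dying cells, one of 0.23.

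Plac8 (chr5:100553725-100572245, minus strand), a lysosomal protein abundant in blood monocytes, was at 8.20, 10.3, 9.64 and 17.7 CPM in the GL261 bulk tumors and at 16.5, 23.3, 32.8 and 22.04 CPM in the CT2A bulk tumors. GL261 replicate 417 reached into the CT2A range. The log2 fold change of 0.99 (standard error 0.30) just passed (adjusted p = 0.0431). It no longer passed when any library other than GL261 replicate 417 was left out (7 of 8 cases), or with RSEM counts, thinned reads, a fit of all 6 groups, an offset for effective length, or no minimum count. Ly6c2, the surface marker of inflammatory monocytes, was at 12.7 to 25.9 CPM in GL261 and 12.1 to 26.1 CPM in CT2A (log2 fold change 0.09, standard error 0.30).

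The activation gene Arg1 and the scavenger receptor Mrc1 were spread widely among GL261 bulk tumors. Arg1 (chr10:24915221-24927484, minus strand), which encodes an arginase, was at 99.8, 3.68, 7.80 and 20.5 CPM, and at 5.16 to 16.3 CPM in CT2A. Mrc1 (chr2:14229392-14332057, plus strand), the mannose receptor, was at 49.9, 7.19, 11.5 and 9.22 CPM, and at 11.8 to 18.8 CPM in CT2A. GL261 replicate 405 was highest for both. Neither gene passed (Arg1 -1.72, standard error 0.99, adjusted p = 0.262; Mrc1 -0.55, standard error 0.65). Neuron markers summed to 208.5 to 3577 CPM in GL261 and 504.9 to 3272 CPM in CT2A bulk tumors, which is a wide range within both lines. With a score of these markers as a covariate, Gpnmb and Plac8 again passed between the lines, and Arg1 and Mrc1 did not. The part of these markers in the spread of Arg1 and Mrc1 within a line was not tested.

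In sorted fractions, 3 of 37 genes were lower in CT2A (Gpnmb, Cd14 and Chil3) and none was higher, where 50.8% of all genes tested passed (24% higher and 26.8% lower). The median log2 fold change was 0.31 over the 37 genes and -0.01 over all genes. Ptprc was at 7.75, 61.7, 65.8 and 43.2 CPM in GL261 and at 48.5, 48.3 and 100.4 CPM in CT2A sorted libraries, so that the leukocyte marker was measured in every sorted library and was lowest in GL261 replicate 81. Whether reads of the 40 genes in sorted fractions came from remaining host cells or from the tumor cells was not tested. None of the 13 general genes passed by edgeR or DESeq2, none had an unadjusted p under 0.05, and Ptprc stood at a log2 fold change of 0.56 (standard error of 0.61 and adjusted p = 0.471). With DESeq2, 6 genes passed (4 lower, 2 higher).

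Gpnmb reached its highest levels of the study in GL261 sorted fractions, at 6249, 3449, 3900 and 4034 CPM. In CT2A sorted fractions it was at 51.1, 60.8 and 72.2 CPM. The groups were far apart (log2 fold change -6.15, standard error 0.30, adjusted p = 2.54e-06). The library with the least of the backbone, GL261 replicate 81, had the most Gpnmb. In these libraries Gpnmb took a median of 32% of the summed TPM of the 40 genes, and 70.1% in replicate 81.

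Cd14, the co-receptor for bacterial lipopolysaccharide, stood at 66.9, 73.1, 68.0 and 66.9 CPM in GL261 sorted libraries and at 10.7, 15.2 and 22.5 CPM in CT2A sorted libraries. The 4 GL261 libraries lay close together and above the CT2A libraries, although the backbone in replicate 81 was 4.82-fold under the median of the others. The log2 fold change was -2.08 (standard error 0.24, adjusted p = 1.96e-04). Chil3, a secreted chitinase-like protein of monocytes and neutrophils, was at 7.75, 19.5, 17.6 and 10.4 CPM against 2.76, 6.67 and 5.85 CPM, without overlap (-1.43, standard error 0.44, adjusted p = 0.0254). The adjusted p of Chil3 missed the threshold without CT2A replicate 69 or 71 and without GL261 replicate 82 or 83. Neutrophil markers summed to 1.24 to 11.1 CPM in GL261 and 1.25 to 29.0 CPM in CT2A sorted libraries. Of these markers Ly6g was at most 0.128 CPM in any sorted library of either line, so that others held most of the sum. The part of neutrophil markers in the Chil3 values was not tested.

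Without GL261 replicate 81, 6 genes passed in sorted fractions. Gpnmb (-5.95), Cd14 (-2.10) and Chil3 (-1.63) remained lower in CT2A, Arg1 and Mmp12 were added to them, and Mertk was higher in CT2A. With all libraries, Mmp12, a secreted elastase of macrophages, stood at a log2 fold change of -1.44 (standard error of 0.60 and adjusted p = 0.0774), Arg1 one of -1.41 (adjusted p = 0.133), Mertk one of 0.93 (adjusted p = 0.0872) and Plac8 one of 1.12 (adjusted p = 0.0821). Ms4a7, a membrane protein of macrophages derived from monocytes, was at 1.48, 20.7, 15.3 and 9.62 CPM in GL261 and at 21.4, 23.7 and 41.1 CPM in CT2A, and its difference did not pass (1.28, standard error 0.66, adjusted p = 0.137). Microglia markers summed to 122.7 to 417.3 CPM in GL261 and 422.9 to 593.5 CPM in CT2A sorted libraries, without overlap, and their part in the values of the myeloid genes was not tested.

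**Figure D1:**
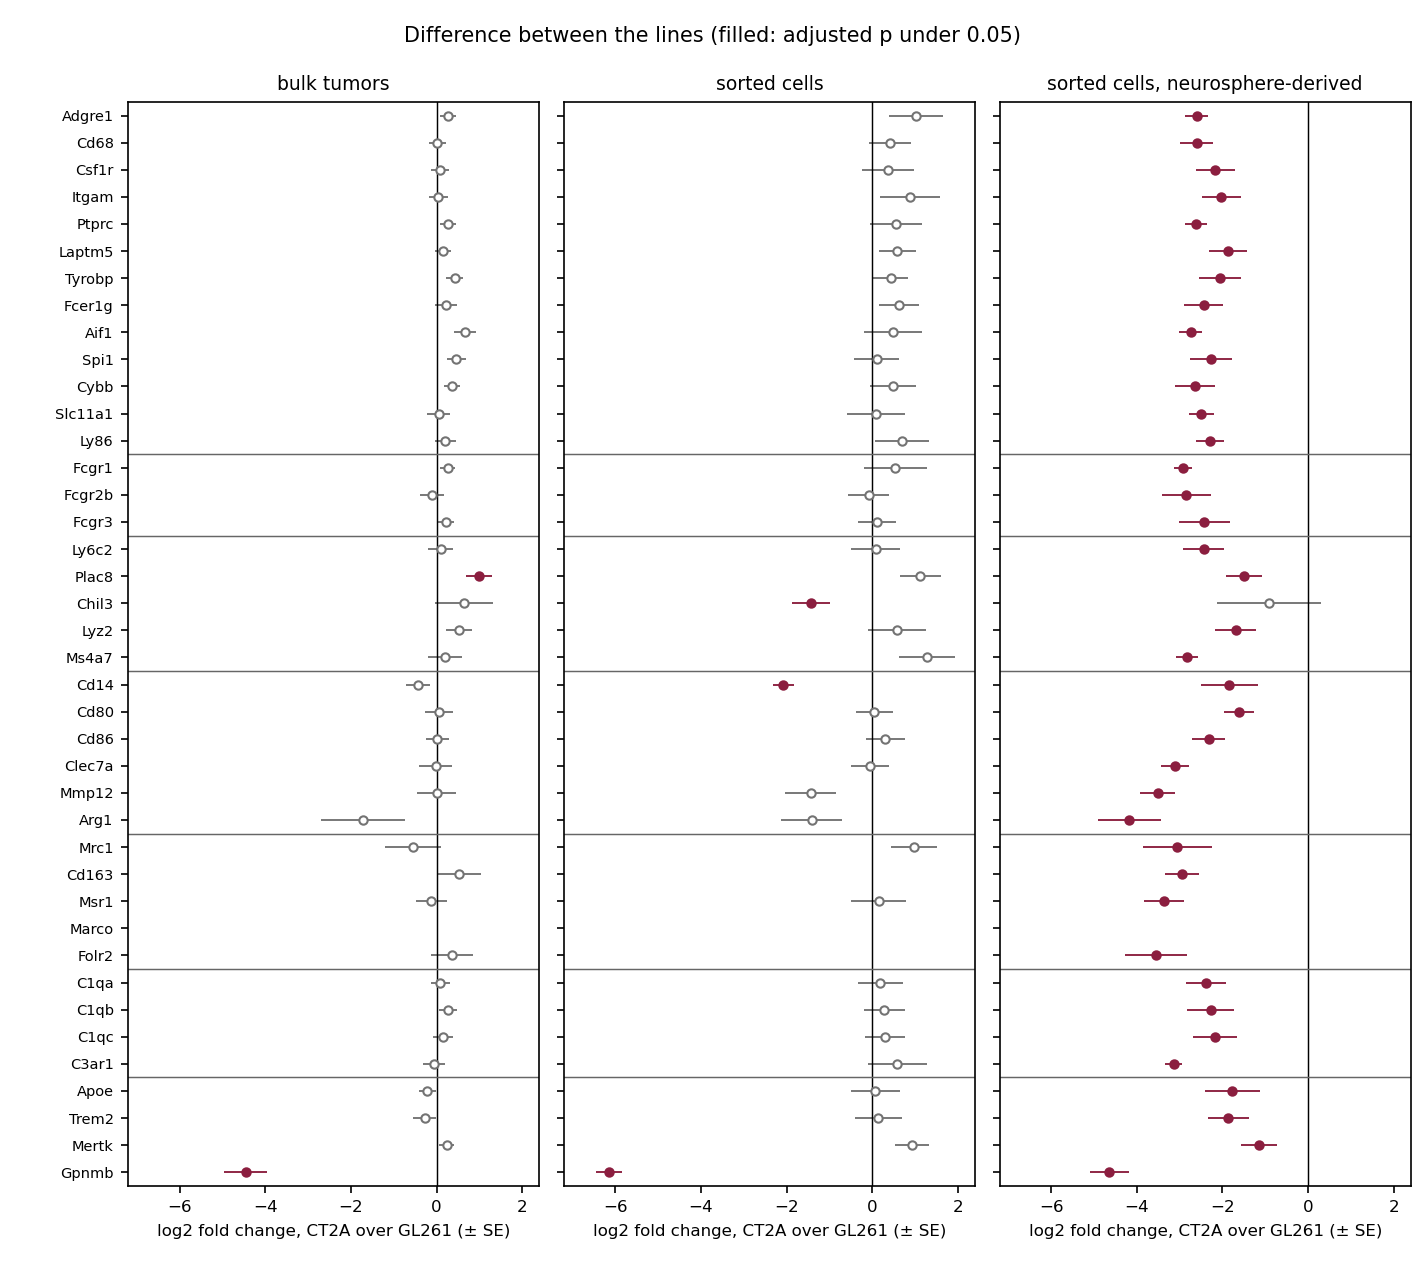
Log2 fold change of CT2A over GL261 (x axis, with bars of 1 standard error) for each gene (y axis, by role) in bulk tumors, sorted fractions and neurosphere-derived fractions. Filled points passed an adjusted p of 0.05. Gpnmb lies far to the left in all 3 panels (-4.46, -6.15 and -4.64), and in the third panel all other genes but Chil3 also passed to the left of 0.

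In neurosphere-derived fractions, 38 of 39 genes tested were lower in CT2A, where 59.6% of all genes tested passed (30% higher and 29.6% lower). The median log2 fold change was -2.44 over the 39 genes and 0.03 over all genes. For 36 of the 40 genes every CT2A library lay below every GL261 library. The share of all genes that lay apart in this way is not given here. All 13 general genes were lower, between -2.74 and -1.87, as were all 3 Fc receptors (-2.92 to -2.42), all 6 activation genes (-4.17 to -1.61), all 4 scavenger receptors tested (-3.55 to -2.94) and all 4 complement genes (-3.14 to -2.17). The value of -3.55 is that of Folr2, which had 0 to 15 estimated reads in the CT2A libraries. Folr2 enters these counts only because its GL261 libraries reached the minimum count. Among the monocyte genes, 4 of 5 were lower. The exception, Chil3, was at 40.8, 37.3 and 78.9 CPM in GL261 and at 12.0, 1.81, 119, 2.30 and 3.22 CPM in CT2A, where replicate 59 lay above all others (-0.91, standard error 1.22). Without replicate 59 all 39 genes were lower, and the median was -2.90.

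Of the general genes, Adgre1, the macrophage surface protein F4/80, was at 271, 254 and 250.5 CPM in GL261 and at 35.8, 29.2, 75.3, 40.1 and 33.5 CPM in CT2A, and no library of CT2A reached the GL261 range (log2 fold change -2.60, standard error 0.27). Ly86, a partner of a Toll-like receptor relative on myeloid cells, was at 222, 152 and 154 CPM against 18.3 to 53.4 CPM (-2.29). Slc11a1, a metal transporter of the phagosome, was at 134, 134 and 100.1 CPM against 12.8 to 35.9 CPM (-2.49). Aif1, the cytoskeletal protein also known as Iba1, differed most of the 13 (-2.74, standard error 0.27) and Csf1r, at 1169, 757 and 765 CPM against 71.8 to 387 CPM, was at -2.16 (standard error 0.45). Among them Itgam, the integrin CD11b, was at 469, 326 and 275 CPM against 29.0 to 166 CPM (-2.02), with most of its sequence shared with Gm49368.

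Ptprc was at 332, 260.3 and 221 CPM in the GL261 neurosphere-derived fractions and at 42.1, 30.9915, 73.3, 37.7 and 35.7 CPM in those of CT2A. No CT2A library came near the lowest GL261 library (log2 fold change -2.62, standard error 0.26, adjusted p = 1.93e-05). Fcgr1, the high-affinity receptor for immunoglobulin G, was at 183, 161 and 111 CPM against 22.2, 13.3, 20.3, 24.6 and 19.8 CPM. Its log2 fold change was -2.92 (standard error 0.21, adjusted p = 1.93e-06). C3ar1, the receptor for the complement fragment C3a, was at 293, 192 and 248 CPM against 29.6, 21.6, 25.2, 38.4 and 24.0035 CPM (-3.14, standard error 0.20, adjusted p = 1.05e-06). For both Fcgr1 and C3ar1, replicate 59 lay among the other CT2A libraries, unlike its high values for Tyrobp (118 CPM against 19.9 to 46.4 CPM) or Apoe (4685 CPM against 651 to 1262 CPM).

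The largest differences were those of Gpnmb (-4.64, standard error 0.45, adjusted p = 2.44e-05) and Arg1. Arg1 was at 810, 541 and 958 CPM in GL261 and at 52.9, 6.24, 108, 29.9 and 16.1 CPM in CT2A (-4.17, standard error 0.74, adjusted p = 9.36e-04). Mrc1 was at 924, 301 and 505 CPM against 30.8, 19.0, 227, 44.6 and 25.8 CPM (-3.05, standard error 0.80). Msr1, a scavenger receptor for modified lipoproteins, was at 446, 357 and 241 CPM against 40.9, 16.5, 70.0, 22.7 and 17.4 CPM (-3.37). For all 3 of these genes the lowest GL261 library lay above the highest CT2A library. Mmp12 had a log2 fold change of -3.51, Clec7a, the receptor for fungal glucans also known as dectin-1, one of -3.11, and Folr2, a folate receptor of tissue macrophages, one of -3.55. Folr2 had 0 to 15 estimated reads in the CT2A libraries and reached the minimum count through those of GL261.

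The smallest differences that passed were those of Mertk (-1.14, standard error 0.42, adjusted p = 0.0387), Plac8 (-1.49), Cd80, a ligand that costimulates T cells (-1.61), Lyz2 (-1.69), Apoe (-1.77, adjusted p = 0.0381) and Cd14 (-1.84, adjusted p = 0.0387). With single libraries left out, Cd14 passed only without CT2A replicate 59, Apoe only without that library or GL261 replicate 91, and Mertk only without 1 of these 2 or GL261 replicate 90. Plac8 missed the threshold without GL261 replicate 90. The summed level of microglia markers was 1060 to 1513 CPM in GL261 and 328.5 to 677.4 CPM in CT2A neurosphere-derived fractions, and 6 of 11 of these markers were lower in CT2A. Markers of some other cell types were also lower in CT2A. Oligodendrocyte markers summed to 500.4 to 575 CPM in GL261 against 29.32 to 306 CPM in CT2A (4 of 6 lower), T and NK cell markers to 15.35 to 30.75 CPM against 2.196 to 4.84 CPM (4 of 4 tested lower), and endothelial markers to 182.4 to 236.9 CPM against 31.35 to 100.3 CPM (5 of 6 lower). Their sums did not overlap between the lines, and their part in the values of the myeloid genes was not tested. Of 6 astrocyte markers, 5 were lower. Dendritic cell markers went the other way, with sums of 9.373 to 12.62 CPM in GL261 against 16.17 to 20.31 CPM in CT2A. Of 7 neuron markers tested by DESeq2, 3 were lower and 1 was higher.

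As given above, the CT2A label of these libraries is at odds with their titles. Pax5, a transcription factor of B cells, was at most 0.0752 CPM in them, at most 0.1253 CPM in CT2A sorted fractions and 0.095 to 0.5758 CPM in CT2A bulk tumors. In GL261 it was at 5.099 to 9.878 CPM in bulk tumors, 14.94 to 17.26 CPM in sorted fractions and 11.49 to 13.24 CPM in neurosphere-derived fractions. Gpnmb was at 64.5 to 247 CPM in the libraries in question and at 570.3 CPM or more in every GL261 library. On both genes these libraries thus lay outside the range of the GL261 libraries.

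The same lines were then compared between kinds of sample. Bulk and sorted libraries differed in subline, number of cells implanted, sort, read length and sequencer, which cannot be told apart. In GL261, 6 of 39 genes differed between sorted fractions and bulk tumors, 3 in each direction, where 34.5% of all genes tested passed (14.4% higher and 20.1% lower). Cd14 (log2 fold change 2.20, standard error 0.19, adjusted p = 2.64e-04), Gpnmb (1.68, standard error 0.40, adjusted p = 0.0119) and Chil3 (1.84, standard error 0.55, adjusted p = 0.0298) were higher after the sort. Cd163 (-2.61, standard error 0.73, adjusted p = 0.0232), Plac8 (-1.60, standard error 0.48, adjusted p = 0.0303) and Ly6c2 (-1.66, standard error 0.51, adjusted p = 0.0337) were lower. Cd163 had 1.05 to 5.06 estimated reads in the sorted libraries and 21 to 122 in the bulk tumors. It thus reached the minimum count only through the bulk tumors, where it was high. None of the 13 general genes passed by edgeR or DESeq2, none had an unadjusted p under 0.05, and Ptprc stood at a log2 fold change of -0.19 (standard error of 0.52 and adjusted p = 0.804).

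The Cd14 values showed no overlap between bulk GL261 tumors, at 17.4, 10.5, 14.2 and 16.8 CPM, and the sorted fractions given above. Cd163 was at 0.492, 2.66, 1.81 and 1.09 CPM in bulk tumors and at 0.114, 0.516, 0.255 and 0.0992 CPM after the sort, so that these are small counts and the lowest bulk tumor lay within the sorted range. Ly6c2 was at 12.7, 18.9, 13.9 and 25.9 CPM in bulk tumors and at 1.71, 10.7, 6.38 and 3.97 CPM after the sort, without overlap. Without GL261 sorted replicate 81, 9 genes passed: Cybb, the catalytic subunit of the phagocyte oxidase, the Fc receptors Fcgr2b and Fcgr3, and Mmp12 joined the higher genes, Ly6c2 (-1.36) and Plac8 (-1.33) were still lower, and Cd163 (-2.38) no longer passed. Ly6c2 missed the threshold without bulk replicate 412, 414 or 417 or sorted replicate 83 or 84, and Plac8 without bulk replicate 414 or 417 or sorted replicate 84. Chil3 missed it without bulk replicate 412, 414 or 417 or sorted replicate 82 or 83, and Cd163 also without bulk replicate 414 or sorted replicate 83 or 84. The number of genes that passed was 2 without bulk replicate 414, and 3 without bulk replicate 417, sorted replicate 83 or sorted replicate 84. Of the 11 microglia markers, 5 were lower after the sort in GL261, as were all 9 neuron markers, 5 of 6 astrocyte markers, 4 of 6 oligodendrocyte markers and 1 of 7 T and NK cell markers. Their part in these values was not tested.

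In CT2A, 6 of 39 genes differed between sorted fractions and bulk tumors, where 49.9% of all genes tested passed (23% higher and 26.9% lower). Mrc1 (1.78, standard error 0.38, adjusted p = 0.00653), Ms4a7 (1.18, standard error 0.28, adjusted p = 0.00914), Mertk (0.44, standard error 0.14, adjusted p = 0.0262) and Msr1 (0.83, standard error 0.26, adjusted p = 0.0293) were higher after the sort. Plac8 (-1.52, standard error 0.25, adjusted p = 0.0019) and Ly6c2 (-1.71, standard error 0.34, adjusted p = 0.00447) were lower. None of the 13 general genes passed in edgeR, where 1 had an unadjusted p under 0.05, and 1 passed in DESeq2. Ptprc stood at a log2 fold change of 0.06 (standard error of 0.28 and adjusted p = 0.874).

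Mrc1 was at 18.8, 14.4, 11.8 and 12.6 CPM in CT2A bulk tumors and at 26.7, 37.5 and 84.7 CPM in CT2A sorted fractions. Ly6c2 was at 12.1, 22.4, 26.1 and 18.1 CPM in bulk tumors and at 7.52, 3.56 and 7.02 CPM after the sort. Plac8 fell from 16.5 to 32.8 CPM in bulk tumors to 9.40, 7.01 and 8.5047 CPM. The groups did not overlap for any of the 3 genes. Mertk and Msr1 lost their call without CT2A bulk replicate 39 or sorted replicate 70 or 71, and Msr1 also without bulk replicate 47 or 48. In a single fit of all 6 groups 2 genes passed, Ly6c2 and Plac8. In CT2A the calls of Ly6c2 and Plac8 held with each library left out, unlike those in GL261 given above. Markers of some other cell types were also lower after the sort in CT2A: T and NK cell markers summed to 11.39 to 28.79 CPM in bulk tumors and 3.679 to 8.079 CPM after the sort (4 of 6 tested lower), and 9 of 9 neuron, 6 of 6 oligodendrocyte, 5 of 6 astrocyte, 5 of 6 endothelial and 3 of 5 dendritic cell markers were lower. Microglia markers summed to 353.3 to 618.9 CPM in bulk tumors and 422.9 to 593.5 CPM after the sort, and the ranges overlapped. Neutrophil markers summed to 1.045 to 5.47 CPM and 1.253 to 28.98 CPM. By DESeq2, the dendritic cell marker Zbtb46, the astrocyte marker Gja1 and the neutrophil marker S100a8 were higher after the sort. The part of any of these markers in the values of the monocyte genes was not tested.

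**Figure D2:**
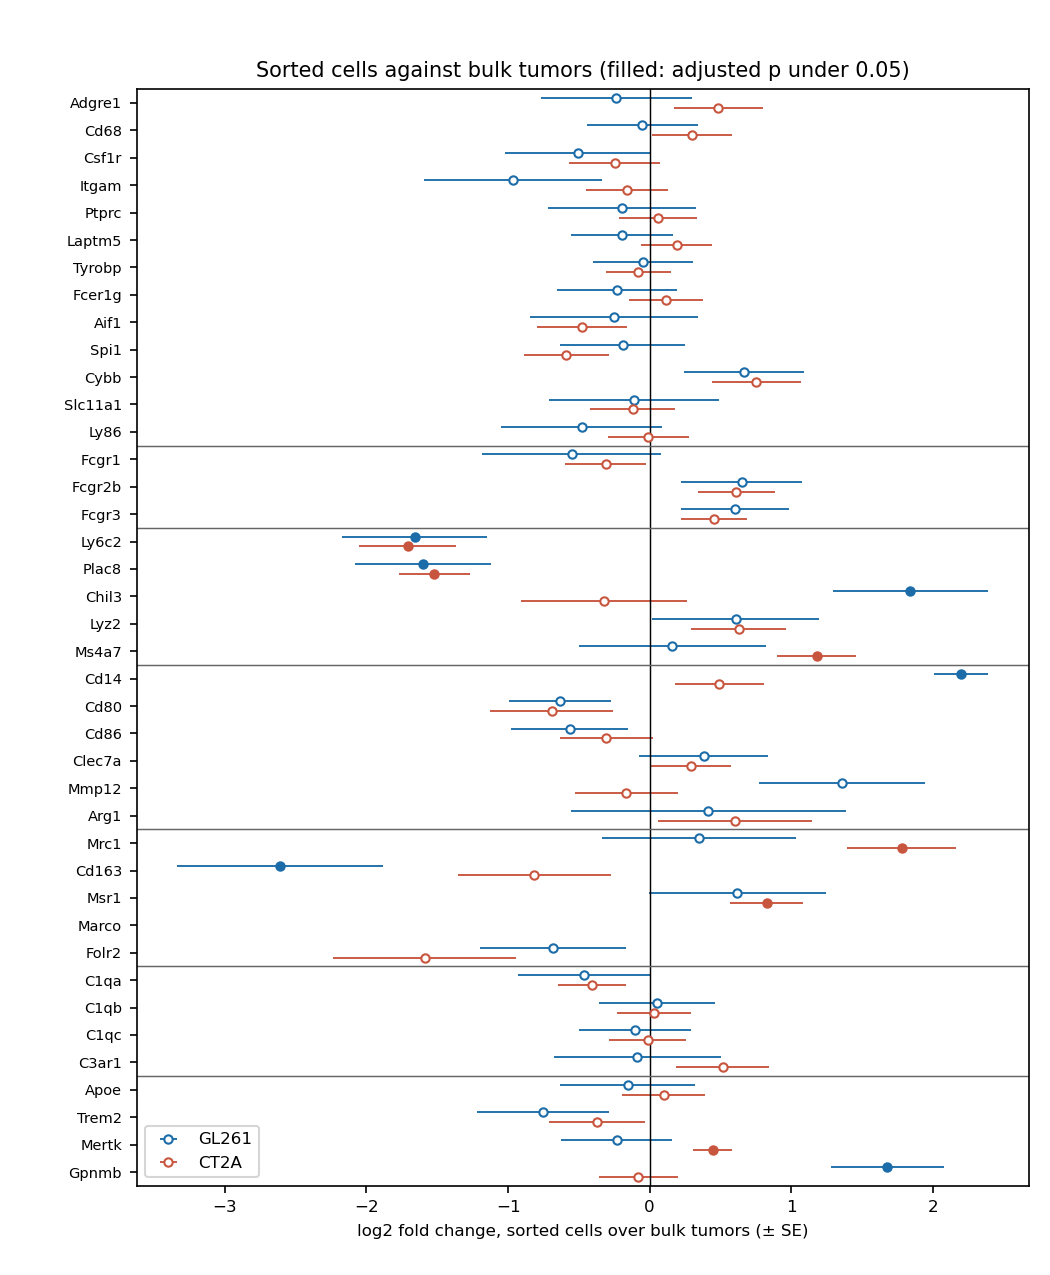
Log2 fold change of sorted fractions over bulk tumors (x axis, with bars of 1 standard error) for each gene (y axis, by role), in GL261 (blue) and CT2A (red). Filled points passed an adjusted p of 0.05. Ly6c2 and Plac8 lie to the left in both lines, and Cd14 lies at 2.20 in GL261 and at 0.49 in CT2A.

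Whether the step from bulk to sorted differed between the lines was tested as an interaction. Cd14 was the 1 gene of 39 that passed (-1.55, standard error 0.37, adjusted p = 0.0127), where 13.5% of all genes passed (7.67% higher and 5.8% lower). Its log2 fold change from bulk to sorted was 2.20 in GL261 and 0.49 (adjusted p = 0.234) in CT2A. For Gpnmb the interaction was -1.61 (standard error 0.53, adjusted p = 0.0589), and it passed with DESeq2, with the size factors of DESeq2 in edgeR, and in a single fit of all 6 groups. Without GL261 bulk replicate 405, 3 genes passed, and without GL261 bulk replicate 412, 2 genes. The interaction of Cd14 missed the threshold in a single fit of all 6 groups.

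Neurosphere-derived fractions of GL261 held higher levels than sorted fractions of adherent GL261 for 35 of 39 genes, where 8.53% of all genes tested passed (7.58% higher and 0.951% lower). The median log2 fold change was 2.97 over the 39 genes and -0.03 over all genes. All 13 general genes were higher, between 2.67 and 3.36, as were all 3 Fc receptors (up to 3.15 for Fcgr2b), all 4 complement genes (2.98 to 3.05), all 6 activation genes (2.01 to 4.17) and all 4 scavenger receptors tested (3.51 to 5.81). The largest were Cd163 (5.81, standard error 0.50, adjusted p = 0.00167), Mrc1 (4.59, standard error 0.58, adjusted p = 0.00556) and Arg1 (4.17, standard error 0.61, adjusted p = 0.00895). Cd163 was at 11.7, 19.3 and 10.8 CPM in neurosphere-derived fractions, more than in any other library of the study. In the GL261 sorted libraries, Cd163 had 1.05 to 5.06 estimated reads and Folr2 had 2 to 11. Both genes thus reached the minimum count only through the neurosphere-derived libraries, and their fold changes rest on few sorted reads.

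The 4 genes that did not pass were Gpnmb (-0.47, standard error 0.22, adjusted p = 0.258), Ly6c2 (1.34, standard error 0.57, adjusted p = 0.219), Plac8 (1.98, standard error 0.53, adjusted p = 0.0575) and Lyz2 (2.37, standard error 0.63, adjusted p = 0.0581). Gpnmb was at 3348, 3032 and 2645 CPM in neurosphere-derived fractions, below each of the 4 sorted libraries. Ly6c2 was at 6.92, 18.5 and 16.2 CPM, so that it overlapped the sorted range of 1.71 to 10.7 CPM. The count of genes that passed depended on single libraries: it was 16 without sorted replicate 84, 15 without neurosphere-derived replicate 89, 20 without neurosphere-derived replicate 90, and 37 without sorted replicate 81. Of 10 microglia markers, 4 were also higher.

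In CT2A none of 38 genes passed between neurosphere-derived and sorted fractions by edgeR, and none by DESeq2, where 0.167% of all genes tested passed (0.0533% higher and 0.114% lower). By edgeR, 4 of the 38 had an unadjusted p under 0.05. The median log2 fold change was 0.21 over the 38 genes and 0.02 over all genes, and it was -0.30 without neurosphere-derived replicate 59. Cd14 stood at a log2 fold change of 2.16 (standard error of 0.79 and adjusted p = 0.326), with 40.9, 20.2, 209, 70.8 and 25.2 CPM in neurosphere-derived libraries. Ly6c2 stood at a log2 fold change of -1.25 (standard error of 0.46 and adjusted p = 0.324), with 2.78, 1.35, 4.62, 1.10 and 2.93 CPM.

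The step from sorted to neurosphere-derived fractions differed between the lines for 18 of 39 genes, all of them lower in CT2A, where 6.67% of all genes passed (0.969% higher and 5.7% lower). The interactions that passed ran from -5.26 (Cd163, standard error 0.80, adjusted p = 0.00355) to -2.50 (Laptm5). That of Cd163 rests on the few sorted reads given above. They comprised 9 of the 13 general genes, 3 of 4 scavenger receptors tested, and none of the 4 genes of lipid handling and dead-cell uptake, of which 3 had an unadjusted p under 0.05 and 2 passed in DESeq2 (Mertk lower, Gpnmb higher). The number that passed was 5 without CT2A sorted replicate 71, 6 without GL261 neurosphere-derived replicate 89, 11 without replicate 90 of the same group, and 34 without CT2A neurosphere-derived replicate 59. Without GL261 sorted replicate 81 it was 17, of which 15 were among the 18.

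**Figure D3:**
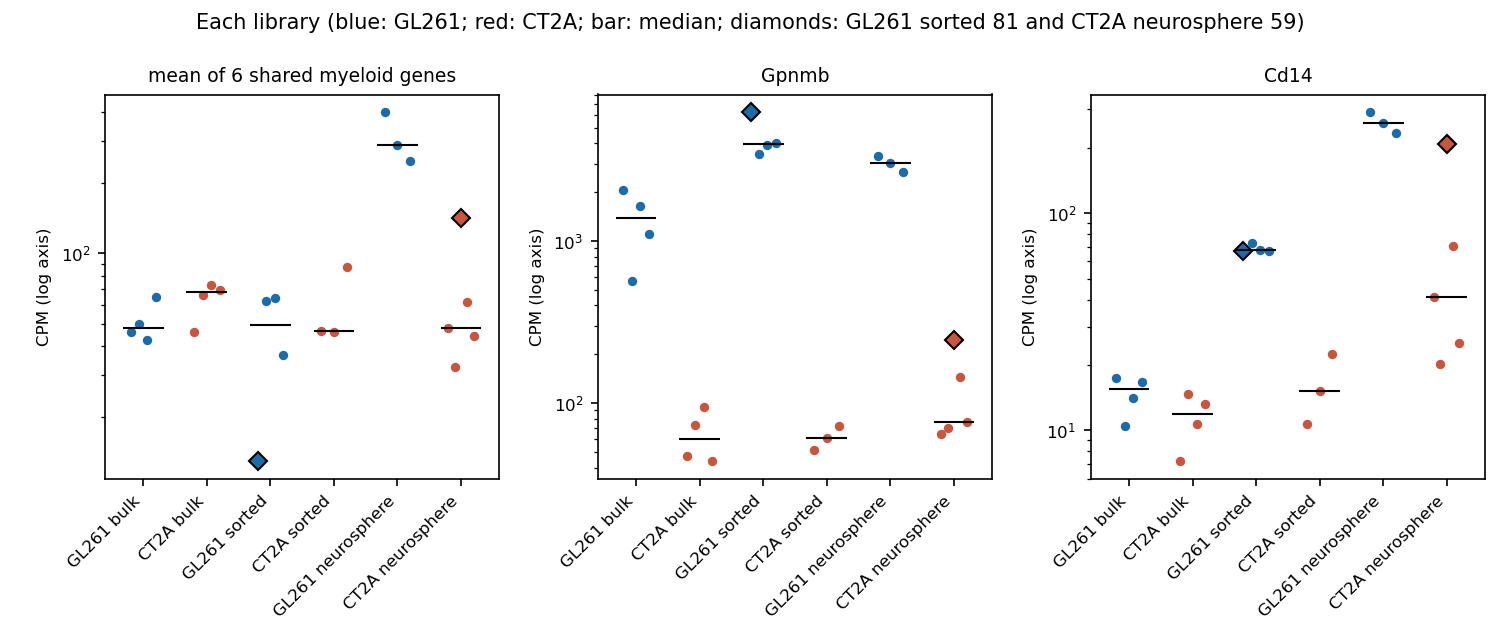
Level per library (y axis, CPM, log scale) of the myeloid backbone (geometric mean of 6 genes), Gpnmb and Cd14 in the 6 groups (x axis); bars are group medians, and diamonds are GL261 sorted replicate 81 and CT2A neurosphere-derived replicate 59. The backbone of replicate 81 lies at 12.9 CPM while its Cd14 (66.9 CPM) lies with the rest of its group and its Gpnmb (6249 CPM) above it.

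To ask which genes differed beyond the total of myeloid transcripts, those of the 34 genes outside the backbone that passed the filter on low counts were also tested relative to it, with the backbone in place of the library size. The ratios of the 3 C1q genes varied least among the genes outside the backbone. The standard deviation of the log2 ratio across the 23 libraries was 0.177 for C1qa, 0.18 for C1qc and 0.199 for C1qb, and their highest ratio was 1.53 to 1.74 times their lowest. It was 0.264 for Cd86, a ligand that costimulates T cells, and 0.291 for Cd68, a lysosomal protein of macrophages. Over the 7 general genes outside the backbone the highest ratio was 2.56 (Cybb) to 5.86 (Itgam) times the lowest, and for the complement receptor C3ar1 it was 5.61 times. At the other end stood Gpnmb at 2.71, Arg1 at 1.60, Ly6c2 at 1.39, Chil3 at 1.34, Cd14 at 1.33, Cd163 at 1.302, Plac8 at 1.19, Mrc1 at 1.17 and Mmp12 at 1.10. Backbone genes enter their own mean, so that their ratios are not given as a result.

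Relative to the backbone, Gpnmb alone of 33 genes differed between bulk tumors (-4.79, standard error 0.50, adjusted p = 7.93e-05), where 15.3% of all genes passed (3.77% higher and 11.6% lower). Its ratio was 45.2, 11.5, 38.4 and 17.1 in GL261 and 0.626 to 1.29 in CT2A. Plac8 passed on this scale only without GL261 replicate 417, with a ratio of 0.179 to 0.272 in GL261 and 0.316 to 0.449 in CT2A. In sorted fractions Gpnmb (-7.35, standard error 1.24, adjusted p = 8.73e-08), Cd14 (-3.08, standard error 0.91, adjusted p = 0.00545) and Chil3 (-2.01, standard error 0.74, adjusted p = 0.0347) of 31 genes were lower in CT2A, where 21.3% passed (4.4% higher and 16.9% lower). The ratio of Cd14 was 5.19, 1.18, 1.06 and 1.83 in GL261 and 0.228, 0.330 and 0.259 in CT2A. Without GL261 replicate 81, Arg1 (-1.72) and Mmp12 (-1.99) also passed, and Gpnmb was -6.12, Cd14 -2.31 and Chil3 -1.69. With any of the 3 CT2A libraries left out, Gpnmb alone passed, and Chil3 also missed the threshold without GL261 replicate 84. Chil3 missed it as well without a minimum count, and with 4 other general genes as the backbone (Cybb, Cd68, Aif1 and Itgam).

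In neurosphere-derived fractions 85.8% of all genes tested passed relative to the backbone, 81.5% higher and 4.3% lower in CT2A, and the median log2 fold change was 2.57 over all genes and -0.26 over the 33 genes tested here. Of these 33, 5 were lower and 1 was higher in CT2A. The 5 lower were Gpnmb (-2.40, standard error 0.49, adjusted p = 2.83e-06), Arg1 (-2.15, standard error 0.48, adjusted p = 1.85e-05), Mrc1 (-1.12, adjusted p = 0.0245), Msr1 (-1.08, adjusted p = 0.0295) and Mmp12 (-0.997, adjusted p = 0.045). The higher gene was Mertk (1.3, standard error 0.51, adjusted p = 0.0138). With most genes past the threshold, adjustment changed the p-values little, so that these adjusted values are close to unadjusted ones.

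The ratio of Arg1 to the backbone was 2.02, 1.87 and 3.90 in GL261 neurosphere-derived fractions and 1.10, 0.192, 0.768, 0.483 and 0.363 in those of CT2A. The ratio of Mertk was 0.576, 0.304 and 0.325 in GL261 and 1.06, 1.26, 0.774, 0.930292 and 0.937 in CT2A. The ranges did not overlap for either gene. For Mrc1 (2.31, 1.04 and 2.05 against 0.642, 0.582, 1.61, 0.721 and 0.581) and Mmp12 (0.627, 1.03 and 0.906 against 0.950, 0.386, 0.169, 0.179817 and 0.459), 1 CT2A library reached into the GL261 range. Without CT2A replicate 59, Mertk and Plac8 were higher in CT2A and 8 genes were lower, among them Fcgr2b, Folr2 and Chil3 beside the 5 named. Arg1 and Gpnmb passed with each library left out. Msr1, Mrc1 and Mmp12 lost their call without CT2A replicate 60 or 61, Msr1 and Mmp12 also without GL261 replicate 90 or 91, Mrc1 without CT2A replicate 57, GL261 replicate 89 or 91, Msr1 without GL261 replicate 89, and Mertk without GL261 replicate 90 or 91. With the other backbone genes, Msr1, Mrc1 and Mmp12 did not pass. Mmp12 also missed the threshold with DESeq2 and without a minimum count.

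**Figure D4:**
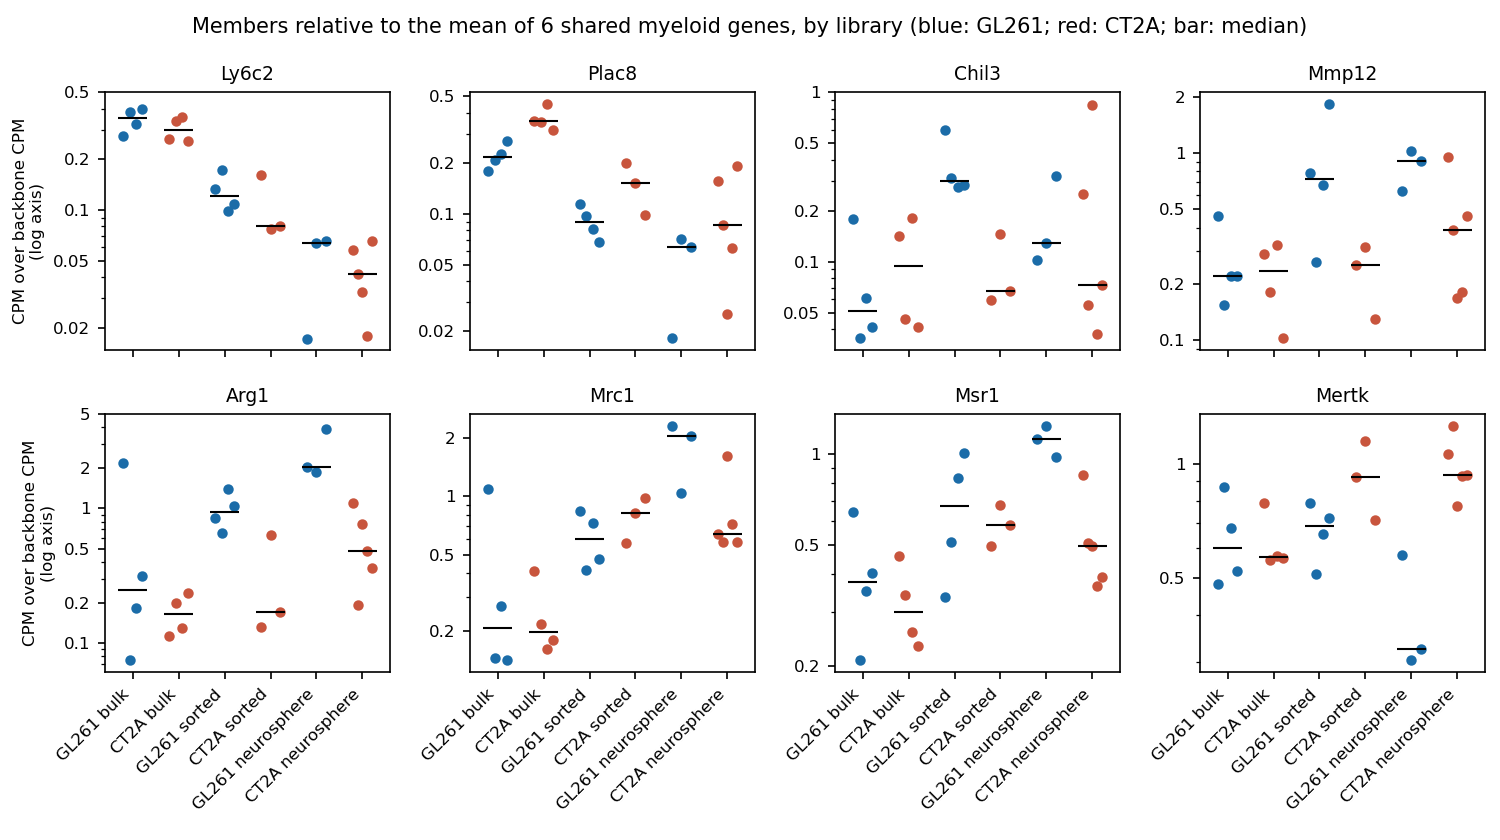
Ratio of 8 genes to the myeloid backbone (y axis, log scale) in each library, by group (x axis). By group median, the ratios of Ly6c2 and Plac8 are highest in bulk tumors and lowest in neurosphere-derived fractions of the same line, those of Arg1 (2.02) and Mrc1 (2.05) are highest in GL261 neurosphere-derived fractions, and that of Mertk (0.325) is lowest there.

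The ratio of Ly6c2 to the backbone was 0.277 to 0.398 in GL261 bulk tumors and 0.259 to 0.357 in CT2A bulk tumors. It was 0.0995 to 0.172 and 0.0776 to 0.161 in the sorted fractions, and 0.0173 to 0.0657 and 0.0178 to 0.0660 in the neurosphere-derived fractions. In each line the ratios of the 3 kinds of sample did not overlap. As a test added after seeing the data, sorted fractions were set against bulk tumors relative to the backbone. In CT2A, Ly6c2 (-1.53, standard error 0.42, adjusted p = 0.00181) and Plac8 (-1.31, standard error 0.41, adjusted p = 0.00817) were lower and Mrc1 (1.71, standard error 0.38, adjusted p = 6.28e-05) and Ms4a7 (1.27, standard error 0.39, adjusted p = 0.00593) were higher, 4 of 33 where 25.3% passed (6.58% higher and 18.7% lower). Without CT2A bulk replicate 47, Ms4a7 and Plac8 no longer passed, and without CT2A sorted replicate 71 the number that passed was 8. In GL261, Cd14 (2.96, standard error 0.72, adjusted p = 0.0014), Gpnmb (2.66, standard error 0.80, adjusted p = 0.012) and Chil3 (2.21, standard error 0.67, adjusted p = 0.0123) were higher and Cd163 (-2.44, standard error 0.88, adjusted p = 0.0392) was lower, 4 of 33 where 21.3% passed (8.34% higher and 12.9% lower). Ly6c2 (-1.43, adjusted p = 0.0917) and Plac8 (-1.31, adjusted p = 0.129) did not pass there with all libraries, and both passed without GL261 sorted replicate 81. The number of genes that passed in GL261 was 1 without bulk replicate 412 and 2 without bulk replicate 414 or 417. Cd163 also missed the threshold with the other backbone genes and without sorted replicate 83 or 84. Here too it reached the minimum count only through the bulk tumors.

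In the same added test, neurosphere-derived fractions of GL261 were set against sorted fractions. Cd163 was higher (3.03, standard error 0.81, adjusted p = 3.13e-04) and Gpnmb lower (-4.17, standard error 1.02, adjusted p = 1.34e-04) relative to the backbone, 2 of 33, where 93.4% of all genes passed (0.124% higher and 93.3% lower). The other 31 did not pass, and Cd163 had few reads in sorted fractions, as given above. Without sorted replicate 81, 5 passed: Cd163, Arg1 and Mrc1 were higher and Ly6c2 and Gpnmb lower. In CT2A none of 32 passed by edgeR (0.898% of all genes passed, 0.107% higher and 0.791% lower), 3 of the 32 had an unadjusted p under 0.05, and 1, Cd14, passed by DESeq2 and by edgeR without replicate 59 (with all libraries 1.78, standard error 0.58, adjusted p = 0.172).

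Further genes of these pathways were counted from lists. In bulk tumors 2 of 15 further monocyte genes were higher in CT2A, Vcan, a proteoglycan (4.25), and Hp, haptoglobin (1.39), and 2 were lower, Nr4a1, a nuclear receptor of patrolling monocytes (-2.50), and Itga4, an integrin (-1.02). Of 18 further inflammatory genes 3 were higher, Cxcl9, a T cell chemokine (1.79), Ptgs2, the inducible cyclooxygenase (1.75), and Il12b, a cytokine subunit (1.73), and none was lower. Of 24 further lipid and lysosome genes 5 were higher, among them Fabp4, a fatty acid carrier (6.57), Spp1, osteopontin (2.73), and Pparg, a nuclear receptor of lipid metabolism (1.51), and 1 was lower, Lgals3, a galectin (-2.10). None of the 6 genes tested of the colony-stimulating factors and their receptors passed by edgeR or DESeq2, and none had an unadjusted p under 0.05. The shares were 4 of 15, 3 of 18 and 6 of 24, beside 23.4% of all genes.

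In sorted fractions 1 of 14 further monocyte genes was higher in CT2A and 4 were lower, including Nr4a1 (-3.71) and Itga4 (-1.88). Of 16 further inflammatory genes 2 were higher and 2 lower, the latter Nos2, the inducible nitric oxide synthase (-3.11), and Cxcl10, an interferon-induced chemokine (-1.62). Of 22 further lipid and lysosome genes 7 were higher, such as Lipa, the lysosomal acid lipase (1.69), and 7 lower, such as Lgals3 (-3.35). The shares that passed were at or below the background of 50.8%, except for the 14 of 22 lipid genes.

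In neurosphere-derived fractions 10 of 14 further monocyte genes and 12 of 17 further inflammatory genes were lower in CT2A and none was higher, such as Ms4a4c (-3.31), Il1rn, the interleukin 1 receptor antagonist (-3.62), and Nos2 (-5.91). Of 23 further lipid and lysosome genes 17 were lower, such as Itgax, an integrin (-3.31), Nr1h3, the liver X receptor alpha (-2.49), and Ctsb, a lysosomal protease (-2.08), and 1 was higher, Lgals1 (1.07). Of the 6 genes of the colony-stimulating factors and their receptors 4 were lower, Csf2rb2 at -2.80, Csf3r at -2.12 and Csf2ra at -1.68 among them, whereas the Csf1r ligand Il34 was higher (1.37). Over all genes 59.6% passed in this comparison, 30% higher and 29.6% lower.

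From bulk tumors to sorted fractions of GL261, 4 of 16 further inflammatory genes were higher and none was lower: among them were Cxcl2, a neutrophil chemokine (3.92), Il1b, the cytokine (1.71), and Ccl3, a chemokine (1.51). In CT2A, 3 of 17 were higher, Cxcl2 (4.82), Tlr4, which signals with Cd14 (1.25), and Ccl3 (0.92), and 5 were lower, such as Cxcl10 (-1.44), Ccl5 (-1.20) and Tnf (-0.98). Over all genes 14.4% were higher and 20.1% lower from bulk to sorted in GL261, and 23% higher and 26.9% lower in CT2A. Fabp4 was lower in CT2A sorted fractions (-7.17), as was Cd36, a receptor for fatty acids (-2.23). Among the neurosphere-derived and sorted fractions of GL261, 15 of 16 further inflammatory genes and 14 of 23 further lipid and lysosome genes were higher and none was lower, beside 7.58% higher over all genes. In CT2A none of the 13 monocyte, 16 inflammatory and 22 lipid genes tested passed by edgeR in that comparison, where 3, 8 and 4 of them had an unadjusted p under 0.05. By DESeq2, 1 monocyte gene was higher and 1 lower, and 5 inflammatory genes were higher, Ccl3, Ccl4, Tnf, Il1b and Cxcl10.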

How the data were processed

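Messenger RNA of 23 ex vivo tumor libraries of the glioma lines GL261 and CT2A was sequenced, and the authors quantified it with Salmon against mouse transcripts (mm10). The deposited tables hold estimated counts and TPM per transcript. For the bulk tumors and sorted fractions of adherent lines, the authors also deposited expected counts from RSEM 1.3.3 after alignment with STAR 2.7.7a. Bulk libraries were read as longer pairs on another sequencer than sorted libraries, and the labels and the methods name different kits for the sorted libraries.

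The estimated counts were summed per gene and rounded. Genes with a mean normalized count above 10 were tested by edgeR 4.0.16 (quasi-likelihood, robust, TMM, R 4.3.3) among the groups compared, with p-values adjusted by the Benjamini-Hochberg method over all genes tested and a threshold of 0.05. DESeq2 1.42.0 was an alternative, as were RSEM counts, other size factors, an effective length offset, other minimum counts, thinned reads, 1 fit of all 6 groups, other backbone genes and leaving out each library. Between bulk tumors, a score of neuron markers was also added as a covariate. Standard errors are the size of the log2 fold change divided by the square root of F. Levels are CPM scaled over all 23 libraries. Ratios to the backbone are CPM over the geometric mean CPM of the 6 genes. In the test relative to the backbone, the geometric mean of their counts (count + 0.5) replaced TMM as the offset. The sorted against bulk and neurosphere-derived against sorted tests on that scale were added after seeing the data. The fits were also run on simulated counts with a fixed variability and a backbone that did not change. The real libraries differ in their backbone, so that this run does not show how the fits behave on them. Titles, descriptions and cell line labels gave the groups, and nothing states that replicates pair across groups. Replicates are separate tumors or preparations only as far as the labels say, so that p-values measure the spread between these libraries.

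All 40 genes were named, and for further lists at most 3 genes in each direction with the smallest p. The 40 genes and the lists were chosen with earlier results of these data known. Transcripts without a gene (0.0413 to 0.152% of reads) were left out. Protein sequences were not analysed here, and the marker used for the sort is not reported here.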

Additional observations from a re-analysis of the deposited data

Results flagged for a closer look

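In 23 of 164 groups of 4 or 5 libraries, 1 library stood apart from the others by Dixon's test at its 95% critical value, which chance gives in about 1 of 20 groups. Of these 23 cases, 15 were the high value of CT2A neurosphere-derived replicate 59. Its backbone was 140.7 CPM, and the genes singled out there were Adgre1 at 75.28 CPM, Ptprc at 73.27 CPM, Tyrobp at 118.2 CPM, Fcer1g at 109.6 CPM and Spi1 at 50.19 CPM of the general genes. Cybb, the catalytic subunit of the phagocyte oxidase, was at 191.1 CPM there and Fcgr2b, the inhibitory Fc receptor, at 258.2 CPM. Chil3 was at 118.5 CPM, Lyz2 at 1044 CPM, Cd14 at 209.1 CPM and Mrc1 at 227.2 CPM in that library. C1qb was at 625.4 CPM, Apoe at 4685 CPM and Mertk at 108.9 CPM. Because these genes share 1 library, the 15 cases are not separate observations. No value of GL261 sorted replicate 81 was among the 23 cases.

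GL261 bulk replicate 405 was high for Chil3 (8.175 CPM) and Mrc1 (49.87 CPM), and GL261 bulk replicate 417 for Adgre1 (38.3 CPM) and Fcgr1 (34.23 CPM). CT2A bulk replicate 39 was low for Ptprc (48.59 CPM), and CT2A bulk replicate 47 was high for Folr2 (3.359 CPM). Marco was above 0 in a single library of its group in GL261 sorted replicate 83 (0.6378 CPM) and in CT2A neurosphere-derived replicate 60 (0.3678 CPM).

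The step from bulk to sorted fractions differed between the lines for Cd14 (interaction -1.55). The step from sorted to neurosphere-derived fractions differed between the lines for 18 genes, all lower in CT2A. Among general genes the interactions were -3.67 for Adgre1, -3.28 for Aif1, -3.23 for Ptprc, -3.16 for Cybb, -3.10 for Fcer1g, -3.06 for Cd68, -3.04 for Ly86, -2.53 for Tyrobp and -2.50 for Laptm5. They were -5.26 for Cd163, -4.08 for Mrc1 and -3.56 for Msr1 among scavenger receptors, and -4.16 for Ms4a7 and -2.65 for Plac8 among monocyte genes. For Fcgr1 the value was -3.51, for C3ar1 -3.78, for Clec7a -3.11 and for Cd86 -2.68. GL261 sorted replicate 81 and CT2A neurosphere-derived replicate 59 enter these fits, and the numbers of genes without them are given above. The value of Cd163 rests on few reads in GL261 sorted fractions.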

How the results depend on the processing

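No call of a single gene turned in direction under any alternative run. The number of the 40 genes that passed moved by over 1.5 times as follows. Between bulk tumors it was 2, and 1 with the effective length offset, with all 6 groups in 1 fit, without a minimum count, with thinned reads and with RSEM counts. Between sorted fractions it was 3, against 6 with DESeq2 and 5 with all 6 groups in 1 fit or with RSEM counts. From bulk to sorted in CT2A it was 6, and 2 with all 6 groups in 1 fit. The interaction of line and sort gave 1, and 2 with DESeq2, with its size factors in edgeR or with RSEM counts. The interaction of line and neurosphere-derived against sorted fractions gave 18, against 32 with DESeq2, 29 with all 6 groups in 1 fit and 11 without a minimum count. Relative to the backbone the number rose with DESeq2 from 3 to 5 between sorted fractions (5 also with RSEM counts), from 4 to 7 from bulk to sorted in each line, from 2 to 6 from sorted to neurosphere-derived in GL261 and from 0 to 1 in CT2A, where other backbone genes also gave 1. The cause of these changes was not tested.

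With 1 library left out at a time, the number ran from 1 to 2 between bulk tumors, 2 to 6 between sorted fractions, 35 to 39 between neurosphere-derived fractions, 2 to 9 and 4 to 8 from bulk to sorted in GL261 and CT2A, 15 to 37 and 0 to 0 from sorted to neurosphere-derived in GL261 and CT2A, and 1 to 3 and 5 to 34 for the interactions. Relative to the backbone it ran from 1 to 2, 1 to 5 and 2 to 10 between the lines, 1 to 6 and 2 to 8 from bulk to sorted, and 2 to 5 and 0 to 1 from sorted to neurosphere-derived. No paired analysis was possible because the replicate numbers of the labels are unique to each library and tie no library to another. Groups held 3 to 5 libraries, and Cd163, Marco and Folr2 were too low in sorted fractions to be tested between the lines.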
